A study of Drosophila melanogaster with 2 samples.

Results

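Genes that encode RNA-binding proteins of the fly nervous system were examined for binding of tagged Rel. They are elav, fne, Rbp9, Syp and Imp, 5 of 13945 protein-coding genes. They were chosen by gene symbol with peak ranks of these data already in view, so their ranks and peak numbers are given as a description and were not tested. Rel (Relish) is the NF-κB factor of the Imd branch of fly immunity. In the study, a transgenic line carried Rel with GFP at the C terminus, and bound DNA was recovered by ChIP-seq with an antibody against GFP (the antibody field of the labels names Rel itself). All larvae were in the third instar, at the wandering stage, males and females were pooled, and the age is given as unknown. There were 2 biological replicates, numbered 2 and 3, and no second genotype, treatment or infection, so the comparisons are between genes and between replicates. The tag shows only those Rel forms that keep their C terminus. Whole larvae were used, so strong binding in few cells and weak binding in many cannot be told apart. Whether the label "neuronal" holds for the cells in which Rel was bound could not be checked, since no expression was measured.

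The deposited values are peak lists on genome build dm6, not read counts, so sequencing depth is unknown. Each replicate, and the pooled reads of both, has a relaxed list of 30000 regions, in which true peaks are mixed with background. A list of 2133 peaks was kept by the authors after the irreproducible discovery rate (IDR) procedure, which asks whether peaks rank alike in both replicates. These peaks, which the authors label the optimal IDR list, are the 2133 strongest regions of the pooled list. A kept peak therefore need not rank as high in each replicate. Of the 2133, 60.0% were in the top 2133 of both replicates. Rank 1 is the region with the highest signal value, the authors' own measure against a control alignment. Signal values were compared only within a list. A summit is the position of strongest signal in a region, and a gene was counted as holding a summit if this lay inside the gene or up to 1000 bp upstream.

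ELAV family proteins bind uridine-rich RNA and direct alternative splicing and the choice of distal polyadenylation sites in neurons. The family has 3 members in the fly: elav, whose protein is the standard marker of neurons, and its paralogues fne and Rbp9. Imp, the fly homologue of the IGF2 mRNA-binding proteins, and Syp, the homologue of Syncrip, are found in opposing temporal gradients in larval neuroblasts. Imp is high early and Syp late, and together they set the levels of the transcription factor Chinmo and the time at which neuroblasts stop dividing.

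The 5 genes spanned the whole range from one of the strongest peaks of the data to regions at the level of the relaxed background. Syp held 6 IDR summits, Imp 3 and elav 1, whereas fne and Rbp9 held 0. Thus 3 of the 5 genes (60.0%) held a summit, where 10.6% of all protein-coding genes did. All 5 genes are longer than 10 kb, and among the 1977 protein-coding genes of at least 10 kb the share was 32.8%. Since the genes were selected on these peaks, nothing is read from the difference.

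The order of the 5 genes by their strongest region was Syp, elav, Imp, Rbp9, fne, and it was the same in both replicates. Syp was at rank 25 in the pooled list, 25 in replicate 2 and 14 in replicate 3. For elav the ranks were 142, 130 and 186. Imp was at 650, 1035 and 472. No replicate rank of one of these genes reached into the range of the next. Rbp9 followed with 2998 in the pooled list, 4966 in replicate 2 and 2807 in replicate 3. The strongest region in fne was at 10212, 6463 and 15987. Both of these genes therefore lay beyond rank 2133 in every list. Of all protein-coding genes, 0.186% had a region ranked as high as that of Syp in the pooled list, 1.11% as high as elav and 4.09% as high as Imp. For Rbp9 the share was 13.7%, and for fne 30.4%. These shares are not matched for gene length. The median length was 32.9 kb for the 5 genes and 2.17 kb for all protein-coding genes.

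**Figure D1:**
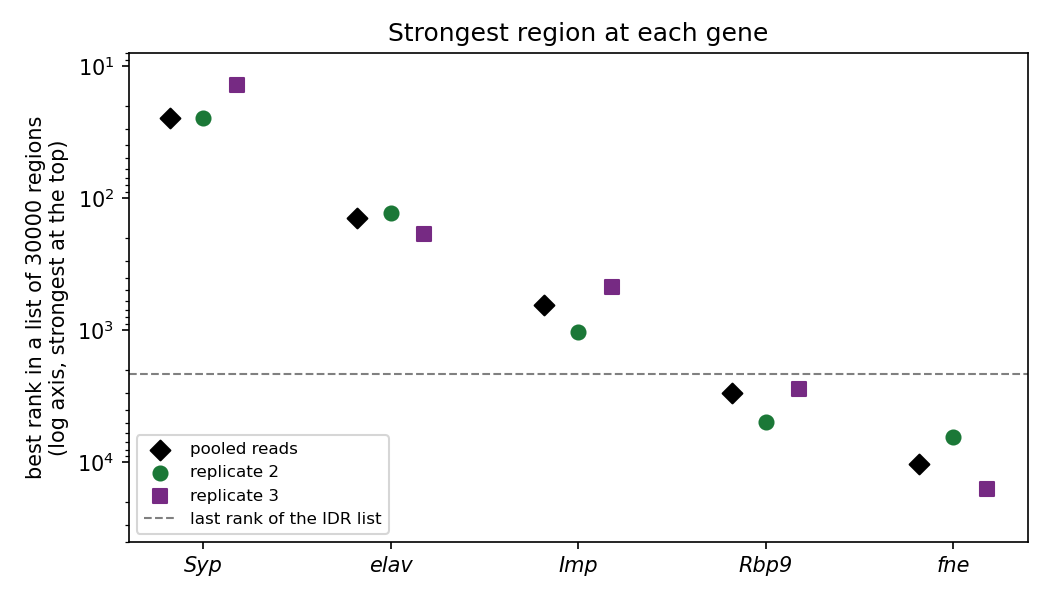
Best rank of any region with its summit in the gene or up to 1000 bp upstream, on a log axis with the strongest at the top, for the pooled list and the 2 replicates; the dashed line is rank 2133, the end of the IDR list. Syp, elav and Imp lie above the line in all 3 lists and Rbp9 and fne below it.

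Syp (FBgn0038826, 3R:20756729-20810726, plus strand, 54.0 kb) has 20 annotated transcripts from 5 start sites. Over all protein-coding genes, 30 (0.215%) held 6 or more IDR summits, a share that is not matched for gene length. The 6 summits of Syp lay in 2 groups. One group of 2 was in the long first intron, 7422 and 8772 bp downstream of the first start site and 1350 bp from each other. The other 4 lay around the 3 internal start sites found 22.2, 23.1 and 26.3 kb downstream of the first one. Between the groups was a gap of 13236 bp without an IDR summit, which contains Takl1, a gene nested on the other strand.

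The strongest peak of Syp (3R:20778586-20778823, signal 355) had its summit 158 bp upstream of the start site shared by transcripts Syp-RB, Syp-RN and Syp-RR. It had a signal of 207 in replicate 2, at rank 25, and of 172 in replicate 3, at rank 14. At 238 bp the peak was narrower than the usual 396 bp, as were 132 of the 200 strongest IDR peaks and 183 of all 2133. The peak at rank 122 (3R:20782611-20783006, signal 211) lay 174 bp upstream of the start of Syp-RF, Syp-RL and Syp-RP. Its ranks were 69 in replicate 2 and 344 in replicate 3, so this one was relatively stronger in replicate 2. The summit at rank 1012 (signal 101) lay 370 bp downstream of the start of Syp-RC, in a 5′ UTR exon, with ranks of 1415 and 827 in replicates 2 and 3. The first start site of Syp, used by 7 transcripts, had no IDR summit within 500 bp and no region of any of the 3 relaxed lists either. The last start site, used by 6 transcripts, had its nearest pooled region 628 bp away, at rank 3063.

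The intronic peak at rank 119 (3R:20765445-20765608, signal 213) was at rank 163 in replicate 2 and 49 in replicate 3. Its neighbour at rank 713 (3R:20763953-20764348, signal 118) was at rank 2286 in replicate 2 and 331 in replicate 3. This neighbour and the peak at rank 1631 (signal 82.5, ranks 3036 and 902), 992 bp downstream of the start of Syp-RF, were outside the top 2133 regions of replicate 2. Both were within the top 2133 of replicate 3. Using only the top 2133 regions of replicate 3, Syp held 8 summits, and using those of replicate 2 it held 4. The sequences at the summits of the strongest peak, the stronger intronic peak and its neighbour are shown because they differ in repeat content. They are dm6 reference sequence, plus strand, 151 bases centred on the summit (3R:20778662-20778812, 3R:20765426-20765576 and 3R:20764076-20764226). Capitals mark GAGAGAG on either strand in the first and a match to GGGNNTNNC, a loose form of the NF-κB site, in the third; the second holds none of the strings searched.
Syp rank 25: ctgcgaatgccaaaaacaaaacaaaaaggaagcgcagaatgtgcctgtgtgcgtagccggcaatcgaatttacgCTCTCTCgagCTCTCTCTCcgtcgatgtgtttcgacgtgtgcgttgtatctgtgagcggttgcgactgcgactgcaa
Syp rank 119: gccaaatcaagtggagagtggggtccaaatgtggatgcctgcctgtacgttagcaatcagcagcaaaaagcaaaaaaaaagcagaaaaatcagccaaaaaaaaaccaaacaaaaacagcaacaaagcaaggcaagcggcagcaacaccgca
Syp rank 713: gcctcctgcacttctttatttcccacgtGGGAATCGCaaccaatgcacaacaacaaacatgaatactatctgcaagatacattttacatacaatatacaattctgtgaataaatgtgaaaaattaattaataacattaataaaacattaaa

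Imp (FBgn0285926, X:10787869-10824277, minus strand, 36.4 kb) has 12 transcripts from 5 start sites. Its 3 IDR summits were matched or exceeded by 155 protein-coding genes (1.11%, counting Imp), a share that is not matched for gene length. All 3 summits of Imp were at the 2 most downstream start sites, 8.64 and 17.4 kb into the gene. The summit at rank 1321 (X:10806630-10807025, signal 90.8) lay 28 bp downstream of the start of Imp-RA, Imp-RB, Imp-RC and Imp-RK, in the 5′ UTR. It was at rank 1035 in replicate 2 and 1754 in replicate 3. The strongest peak (X:10805665-10806060, rank 650, signal 122) was 965 bp away, in the intron that follows, 993 bp downstream of the same start site. Its ranks were 1098 in replicate 2 and 472 in replicate 3, so the stronger of this pair was a different one in each replicate. The peak at rank 1702 (X:10815653-10816048, signal 80.6) lay 216 bp upstream of the start of Imp-RD and Imp-RE, with ranks of 1669 and 1453 in replicates 2 and 3. This was the steadiest of the 3 peaks of Imp between replicates.

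The first 3 start sites of Imp, from which 6 of its transcripts begin, had no IDR summit within 5 kb, the nearest being 5966 bp away. At the first of them the pooled list had a region 269 bp away at rank 18400 and replicate 2 one 233 bp away at rank 10548, while replicate 3 had none within 500 bp. The sequences at the intronic summit and at the Imp-RD promoter are shown for the CA repeats that both carry. They are dm6 reference sequence, plus strand, which is opposite to the direction of Imp (X:10805788-10805938 and X:10815776-10815926), and capitals mark CACACACA on either strand.
Imp rank 650: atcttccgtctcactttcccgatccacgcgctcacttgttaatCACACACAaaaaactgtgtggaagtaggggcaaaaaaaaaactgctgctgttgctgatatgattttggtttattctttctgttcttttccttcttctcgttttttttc
Imp rank 1702: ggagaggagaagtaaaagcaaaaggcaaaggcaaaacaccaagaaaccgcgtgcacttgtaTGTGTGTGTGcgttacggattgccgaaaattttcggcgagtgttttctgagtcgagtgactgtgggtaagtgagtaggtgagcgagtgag

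In elav (FBgn0260400, X:509235-523226, minus strand, 14.0 kb) the IDR summit was at the outer promoter. The peak (X:523410-523520, rank 142, signal 206) was 111 bp wide, and its summit lay 215 bp upstream of the start site of elav-RA, elav-RC and elav-RD, 3 of the 4 transcripts. It had a signal of 121 in replicate 2, at rank 130, and of 88.1 in replicate 3, at rank 186. The summits of the replicates were within 6 bp of that of the pooled reads. The same base lies in an intron of arg, the arginase gene, which runs across elav on the opposite strand (X:509435-528028), so the position alone does not give the peak to elav. Counting summits inside the gene body only, elav held none and 2 of the 5 genes held a summit. The start of the remaining transcript, elav-RB, 2.94 kb into the gene, had no IDR summit within 500 bp; its nearest pooled region was 310 bp away at rank 7187. The sequence at the summit (X:523366-523516, dm6 reference, plus strand, opposite to elav) is shown because this promoter held neither GAGAGAG nor CACACACA; capitals mark a match to GGGNNTNNC.
elav rank 142: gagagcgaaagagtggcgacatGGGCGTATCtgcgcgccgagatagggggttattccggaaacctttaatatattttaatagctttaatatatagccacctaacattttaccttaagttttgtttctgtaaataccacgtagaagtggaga

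Below the IDR limit, elav had further regions at rank 2854, 610 bp downstream of the first start site (signal 63.1), and at rank 3522, near the far end of the gene (signal 56.7). The second of these regions was at rank 2977 in replicate 2 and 5486 in replicate 3. The first was at rank 2228 in replicate 2 and 7256 in replicate 3. The IDR list ended at a signal of 72.5.

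The paralogues fne and Rbp9 had no IDR summit in any setting that was tried. Rbp9 (FBgn0010263, 2L:2954762-2968434, plus strand, 13.7 kb) has 9 transcripts from 3 start sites. Its strongest region (2L:2957576-2957971, pooled signal 61.5) was intragenic, 863 bp downstream of the second start site. Both replicates had a region there, with a signal of 29.2 in replicate 2 and 31.5 in replicate 3. Its −log10 q was 1.63 in the pooled list and 1.41 in replicate 3, both a q under 0.05, and 0.99 in replicate 2, a q above 0.05. The nearest IDR summit was 30226 bp away, at rank 318, in the neighbouring gene lilli.

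In fne (FBgn0086675, X:12917477-12950417, plus strand, 32.9 kb), which has 11 transcripts from 4 start sites, the replicates did not share their strongest region. In replicate 2 it was 6228 bp downstream of the first start site, with a signal of 25.3, and in replicate 3 it was 22549 bp downstream, with a signal of 12.9. The pooled list held 5 regions in fne, with a highest signal of 30.8, and 0 with a q under 0.05. No region of the pooled list lay within 500 bp of any of its start sites. The nearest IDR summit was 25509 bp away, at rank 1220.

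Numbers of relaxed regions followed the same order except for Imp. Per 10 kb of gene and upstream flank, the pooled list held 6.36 regions at Syp, 4.67 at elav, 3.41 at Rbp9, 2.94 at Imp and 1.47 at fne, against 2.24 across the main chromosomes. Regions with a q under 0.05 numbered 12 at Syp, 4 at Imp, 3 at elav, 1 at Rbp9 and 0 at fne. The members nearest to the IDR limit were, inside it, the peaks of Syp at rank 1631 (signal 82.5) and Imp at rank 1702 (80.6). Outside it were regions at Syp (rank 2645, 65.4), elav (2854, 63.1) and Rbp9 (2998, 61.5).

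**Figure D2:**
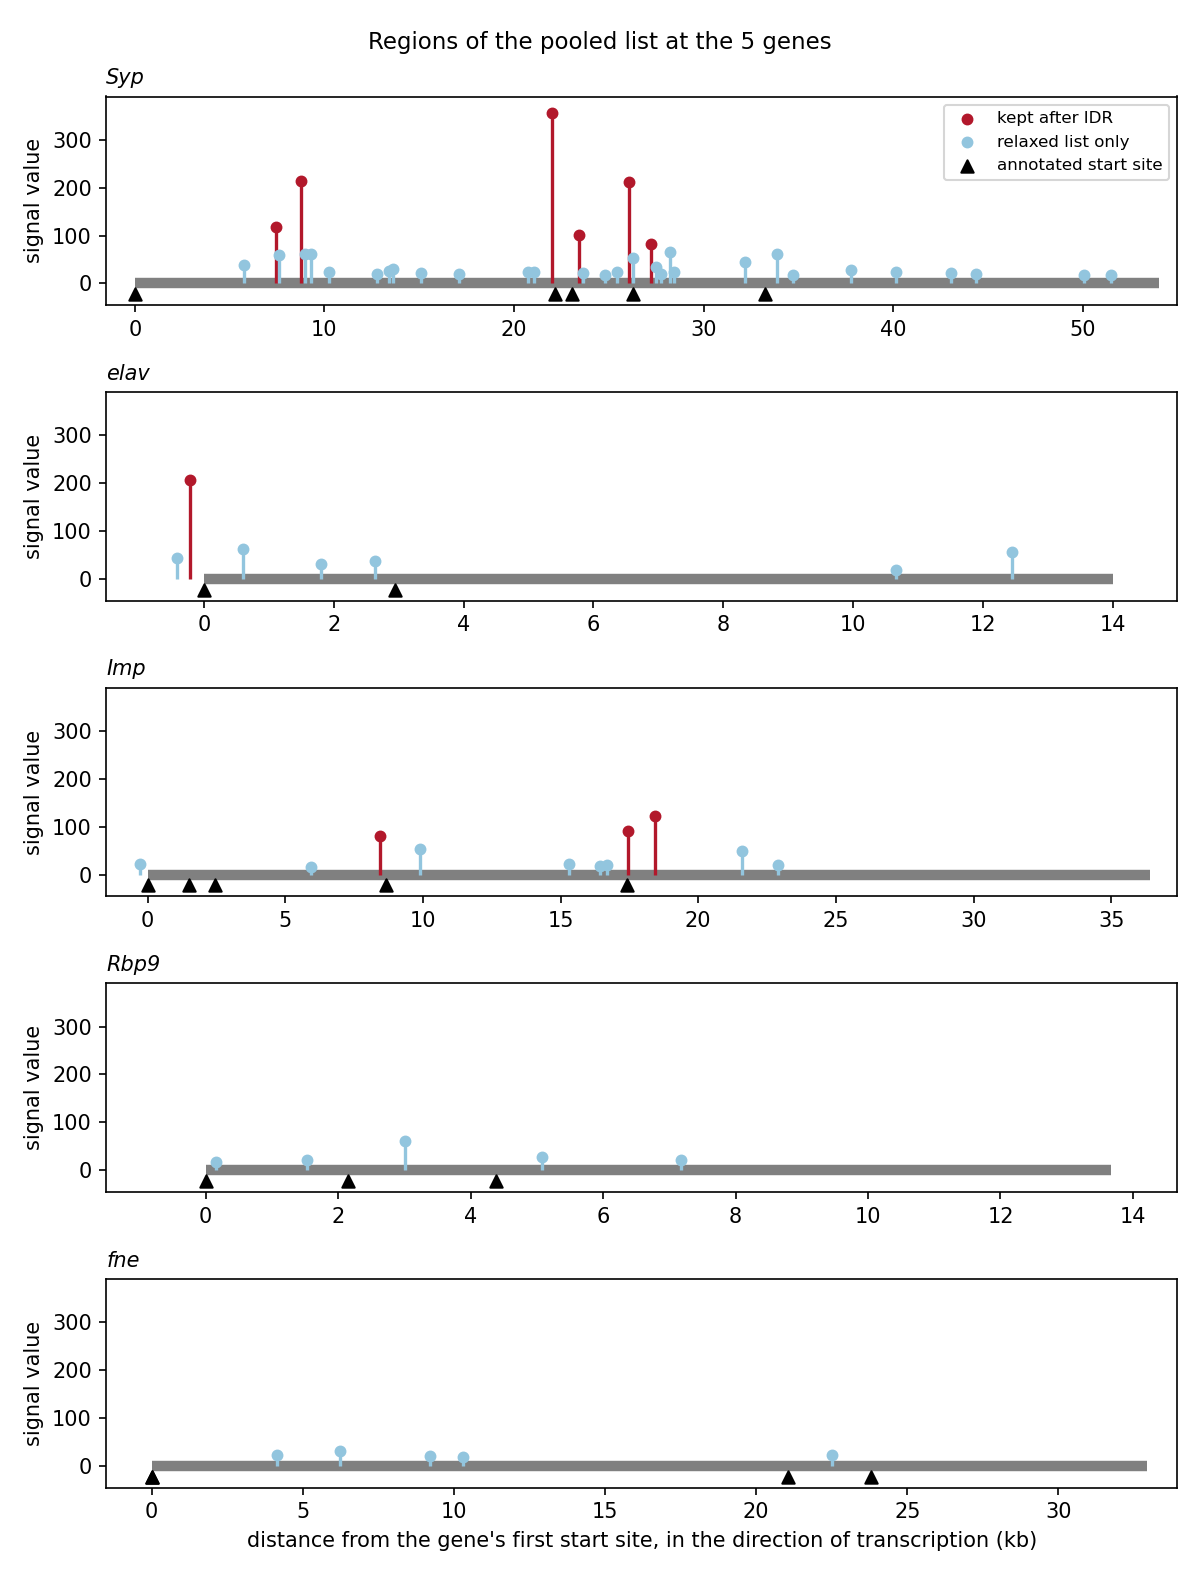
Regions of the pooled relaxed list along each gene, by distance from its first start site in kb and the authors' signal value; red stems were kept after IDR, light blue stems were not, and triangles are annotated start sites. The 6 red stems of Syp fall in 2 groups, those of Imp stand at its 2 last start sites, that of elav just upstream of the first, and Rbp9 and fne have none.

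Of the 10 summits, 6 lay within 500 bp of a start site of the gene, 4 of them upstream and 2 downstream of it. The 6 marked sites were 1 of 5 first start sites and 5 of 14 internal ones. Over all protein-coding genes 6.44% of 19607 start sites had an IDR summit within 500 bp. Among all genes with more than 1 start site, the share was 8.87% of first and 9.54% of internal sites. Among those of them that held a summit, a set without fne and Rbp9, it was 38.8% and 32.6%. The counts for the 5 genes include fne and Rbp9, so they are not like for like with these last shares. In the genes with a summit, 1 of 2 start sites was marked in elav, 3 of 5 in Syp and 2 of 5 in Imp. Only in elav was the first site marked. In Syp the marked sites give rise to 7 of 20 transcripts, in Imp to 6 of 12 and in elav to 3 of 4. No summit lay in coding sequence, and 2 lay in a 5′ UTR. The shares above are of start sites, and the placement of all IDR summits was not counted in these ways. Whether the 10 summits differ from the other IDR summits in placement was therefore not tested.

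All 10 peaks had an overlapping region in both replicates. Nearly all IDR peaks did: 2131 of 2133 had one in replicate 2 and 2123 in replicate 3. Of the 10, 8 were in the top 2133 of both replicates, where 60.0% of all IDR peaks were. All 10 were in the top 2133 of replicate 3 and 8 in that of replicate 2. The shares of all IDR peaks in each single replicate are not given here. Of the 10 peaks, 7 were among the 1066 strongest IDR peaks. The genes were chosen with peak ranks in view, so nothing is read from these counts. Summit positions in replicate 3 were within 50 bp of the pooled summit for all 10, against 73.9% of all IDR peaks. In replicate 2 this held for 7 of the 10, against 78.5%. The 3 others, Syp at ranks 25 and 1631 and Imp at rank 650, were offset by -57, -160 and 83 bp, where a negative value lies to the left on the plus strand. The pooled reads contain those of both replicates, so these positions are not independent of each other.

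**Figure D3:**
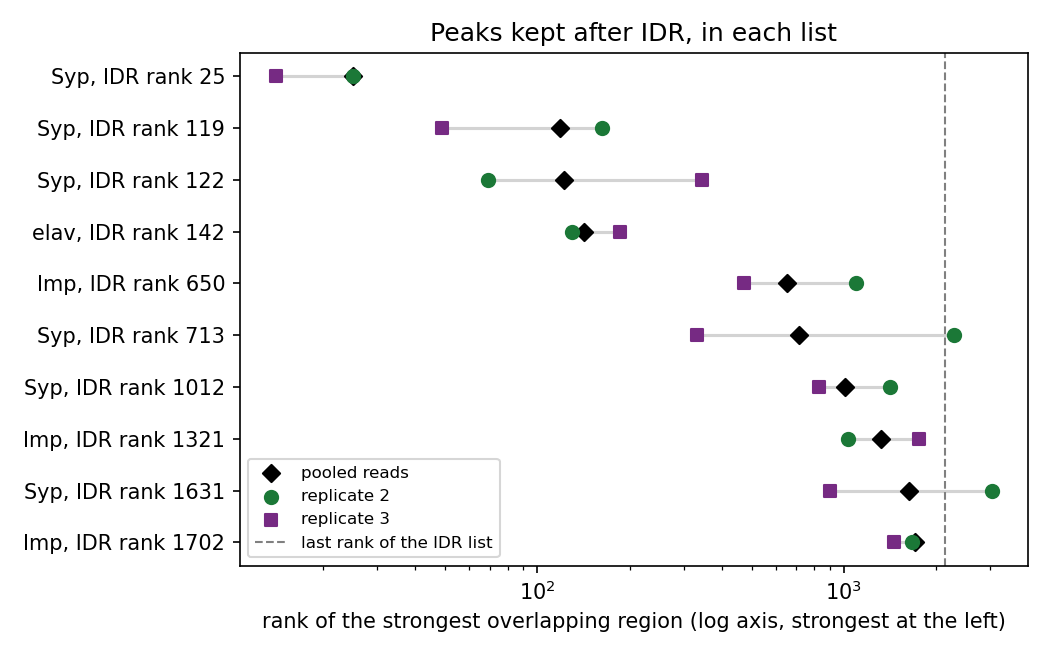
Ranks, on a log axis, of the 10 IDR peaks at Syp, elav and Imp in the pooled list and of the strongest overlapping region in each replicate; grey bars join the replicates and the dashed line is rank 2133. The 2 green circles beyond the line are the peaks of Syp at IDR ranks 713 and 1631 in replicate 2.

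Windows of 100 bp either side of the summit base were searched on both strands, and positions are those of the match's left end relative to the summit on the plus strand. GAGAGAG, the sequence bound by GAGA factor, was in 3 of the 10 windows (Syp at ranks 25 and 122, Imp at rank 1321) and in 11.1% of all 2133 IDR windows. CACACACA was in 2 (Imp at ranks 650 and 1702) and in 9.38% of all windows. One or the other was in 5 of the 10 windows, and in 18.7% of all. At the strongest peak of Syp, GAGAGAG was on the minus strand at -1 bp, and again at 9 and 11 bp, where 2 matches overlap. Windows of Syp and Imp were mostly richer in GC than the median IDR window (38.3%), from 30.8% at the Syp peak ranked 713 to 55.7% at the one ranked 1012. The window of elav had 41.3%.

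The broad kB string, for NF-κB sites, was in 0 of the 10 windows and in 0.938% of all IDR windows. The looser GGGNNTNNC was in 3, namely those of elav (rank 142, at -53 bp), Syp (rank 713, at -47 bp) and Imp (rank 1702, at -87 bp), and in 14.9% of all. AGATAA, a site of the blood and fat body factor Serpent, was in 1 window (Syp rank 713) and in 12.2% of all. TATCGATA, of DREF, GGTCACACT, of M1BP, and CAGGTAG, of Zelda, were in none of the 10, and in 0.938%, 0.375% and 1.31% of all IDR windows. In 3 of the 10 windows none of the 8 strings was found, and in 58.2% of all IDR windows. With 10 windows at 3 genes, shares of this size are a description only.

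The peaks next in rank to those of the 5 genes lay at genes of other functions, and likeness here means only a neighbouring rank in the IDR list. Beside the Syp peak at rank 25 were Hsp27, a small heat shock protein (rank 24), and a peak shared by SLC5A11 and CG8419 (rank 26). Beside elav at rank 142 were for, the cGMP-dependent protein kinase foraging (141), and Cat, catalase (143). Beside Imp at rank 650, the peak at 649 was in no protein-coding gene or flank, and the one at 651 was in by, a tensin homologue.

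Other RNA-binding protein genes often held IDR summits as well. Of 39 such genes, listed with earlier results of these data known, 19 (48.7%) held at least 1, with 40 summits in all, against 10.6% of all protein-coding genes. Of the 23 that are at least 10 kb long, 17 held one, where 32.8% of all such genes did. The highest-ranked were larp, an mRNA cap-binding translation regulator (rank 10, signal 417), pum, the translational repressor Pumilio (rank 128, signal 210), mbl, the splicing factor Muscleblind (rank 147, signal 203), and orb2, a CPEB protein required for long-term memory (rank 154). The gene brat, also on the list of ELAV targets, whose protein is a tumour suppressor that works with Pumilio, held 7 summits, the strongest at rank 260. In contrast, Fmr1, stau and bru1 held none. These 3 were picked after their values were seen.

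Of 11 genes listed around neuroblast temporal patterning, the process in which Imp and Syp act, 8 (72.7%) held summits, with 24 in all. The share over all protein-coding genes was 10.6%. The list is chinmo, br, mamo, Eip93F, svp, cas, pros, dpn, grh, Myc and EcR. It is broader than temporal factors alone: pros, dpn and Myc, which are on it, held summits at ranks 1876, 1047 and 1939. The median length of the 11 genes was 53.4 kb, against 2.17 kb for all protein-coding genes. Of the 9 that are at least 10 kb long, 7 held a summit, against 32.8% of all such genes. EcR, the ecdysone receptor, had 7 summits (best rank 131), grh, encoding Grainyhead, 3 (319), mamo 5 (502) and br, the Broad complex, 5 (867). The target of both Imp and Syp, chinmo, held 1 at rank 1169, with ranks of 619 in replicate 2 and 3455 in replicate 3. The late temporal gene Eip93F held none, its strongest pooled region being at rank 4651. Both of these were named after their values were seen.

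Among 5 genes whose transcripts are known to be regulated by ELAV family proteins, brat and Dscam1, a neuronal cell surface receptor (best rank 1393), held summits, and 2 of the 4 that are at least 10 kb long did. In this list ewg, Nrg and arm held none, and they are named with their values known. Of 12 general neuron markers 1 (8.33%) held a summit, Syx1A, a syntaxin of synaptic vesicle release (rank 873), and of the 10 that are at least 10 kb long 0 did. Of 5 glial markers, none of which is that long, 1 held a summit, moody, a receptor of the blood-brain barrier glia (rank 534). The shares over all genes are again 10.6%, and 32.8% for those of at least 10 kb. The count of neuron markers was near the first share, and that of the 10 long ones was below the second. Neither difference was tested. The median best rank in the pooled list was 650 for the 5 genes, 2220 for the RNA-binding list and 1169 for the temporal list. It was 4831 for ELAV targets, 13301 for neuron markers and 7352 for glial markers, against 26651 for all protein-coding genes. A gene without a region was counted as ranked last, and these medians are not matched for gene length.

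**Figure D4:**
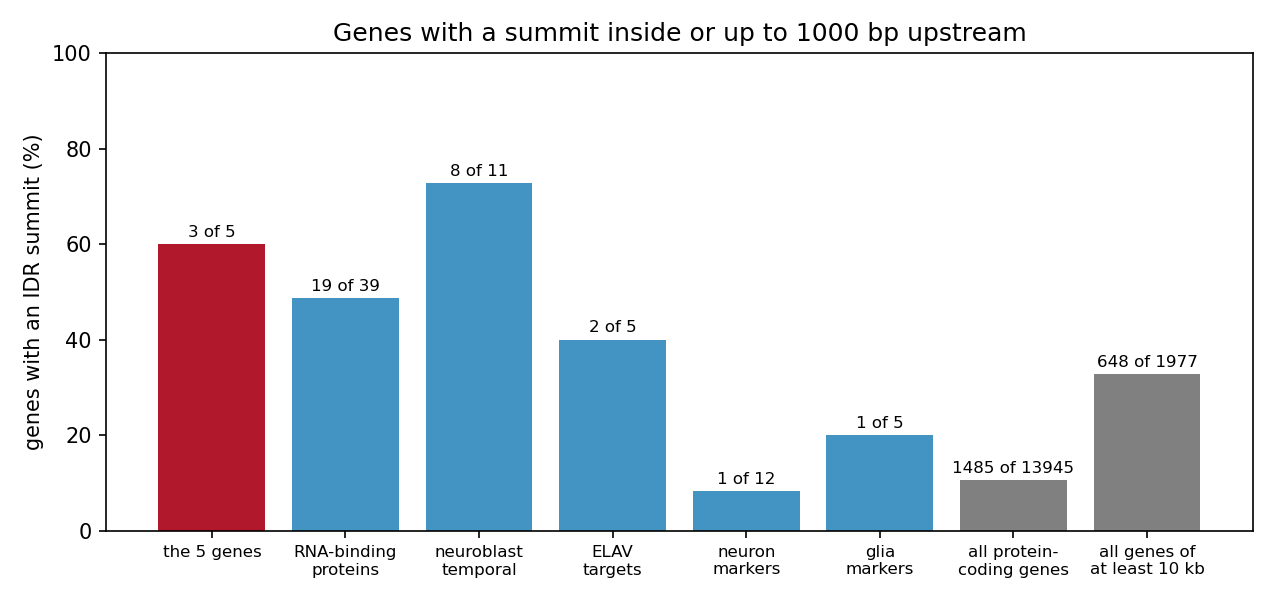
Share of genes with an IDR summit inside the gene or up to 1000 bp upstream, in percent, for the 5 genes (red), the other lists (blue) and 2 backgrounds (grey), with counts above the bars. The 5 genes, the RNA-binding list and the temporal list stand at 60.0, 48.7 and 72.7%, and genes of at least 10 kb at 32.8%.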

How the data were processed

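ChIP-seq against GFP was done on 2 replicates (2 and 3) of whole Rel-GFP larvae, with chromatin sonicated to 200 to 800 bp, per the labels. Per the deposited file lists, the authors made relaxed lists of 30000 regions for each replicate and for pooled alignments against a control alignment, and from them the IDR list. The deposited signal value and the −log10 q of each region are the peak caller's own. Which aligner and peak caller were used is not given here. Lists on dm3 were not used. No read counts are given, so depth and its precision are unknown.

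Genes were placed with the Ensembl 115 annotation (BDGP6.54). Bases were read from the RefSeq copy of the same assembly, and 0 regions ended beyond its chromosomes. Regions were ranked by signal value, summits were assigned to genes with a 1000 bp upstream flank, and start sites within 500 bp were counted. For each IDR peak, the strongest overlapping region of a replicate was taken. Motif strings were counted within 100 bp of summits. Of 73 list symbols 72 matched, and nos did not. Members and lists were chosen with earlier results of these data known. Named genes were the members, up to 4 of each list with the highest-ranked summit, genes at adjoining ranks and chromosomal neighbours. Outside this rule, Fmr1, stau, bru1, chinmo, Eip93F, ewg, Nrg and arm were named after their values were seen, and brat is named through the list of ELAV targets. The temporal list is given in full, with the ranks of pros, dpn and Myc. Assignment and motif counting were tested on simulated data. There is 1 group, so no test was made. Alternatives left out a replicate, halved the list, or changed assignment, overlap or window. Python 3.11.15, numpy 2.4.6, pandas 2.3.3 and matplotlib 3.10.9 were used.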

Additional observations from a re-analysis of the deposited data

How the results depend on the processing

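Of the 5 genes, 3 held a summit in all settings but 1: counting gene bodies only left 2, without elav. The number of summits at them ran from 8 without replicate 3 to 12 without replicate 2, against 10. It was 7 with the 1066 strongest peaks, 9 with gene bodies only and 8 with each summit given to the nearest start site. With the 1066 strongest peaks, 12 genes of the RNA-binding list, 5 of the temporal list and 1 of the ELAV targets held a summit. The glia list held 0 with gene bodies only. The neuron list held 2 with 5000 bp upstream, and from 1 to 2 with 1 replicate left out. Within 200 bp of the summits CACACACA was found at 4 and CAGGTAG at 1, and around the summits of replicate 3 AGATAA was found at 0. The shares over all protein-coding genes and all IDR windows are given for the main setting only. These counts therefore have no background beside them, and nothing is read from their changes. The causes were not tested. Among the 5 genes, the best rank of fne was 6463 in replicate 2 and 15987 in replicate 3. With 2 replicates of 1 group and no read counts, differences between genes have no error estimate beyond the pair of ranks.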

Other observations

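Of the 14 genes that overlap or adjoin the 5 on the chromosomes, 2 held an IDR summit, arg and lilli, which is near the share over all protein-coding genes (10.6%). At Syp, the nested genes CG31195 and Takl1 and the neighbours CG42322 and Fancd2, 90 and 78 bp away, all held 0, with best pooled ranks from 7051 to 29372. Of the neighbours of Imp, sesB, a mitochondrial ADP/ATP carrier, and sbr, an mRNA export factor, held none, with best pooled ranks of 3827 and 4137. At elav, svr and CG4293 held none, and arg held only the peak it shares with elav. At Rbp9, the upstream neighbour lilli, an AFF family transcription factor 356 bp away, held 2 (best rank 318), while Ts, which overlaps its end, and Rrp1 held 0. At fne, CG4645 and hec held 0.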
